A study of Mus musculus with 4 samples.

Results

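Imprinted genes are expressed mainly or only from the chromosome inherited from 1 parent, and 34 autosomal ones were followed here in the embryonic mouse outflow tract. They were chosen by name from a list of imprinted genes, 27 of them coding and 7 noncoding (H19, Airn, Kcnq1ot1, Meg3, Rian, Mirg and Peg13), and lie in 16 domains. All 34 had a row among the 45706 genes of the count table. The tissue was the outflow tract, from which the roots of the aorta and the pulmonary artery arise, taken from C57BL/6 embryos at embryonic day 12.5. Wild type (WT) was set against Sox17eKO, where Cre under an Nfatc1 enhancer removes Sox17, a transcription factor gene of endothelium, at the aortic root. Each genotype had 2 libraries, each from the tissue of 10 pooled hearts, so that a library averages over embryos and over every cell type of the outflow tract. The labels do not state whether WT embryos carried the Cre or a floxed allele. The counts sum the reads of both parental alleles, so they give the level of an imprinted gene and not the allele it came from.

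Imprinted genes sit in clusters around a control region whose DNA methylation is set in 1 parental germline. Many clusters pair growth regulators with a long noncoding RNA from the opposite parental chromosome: Airn runs antisense to Igf2r, Kcnq1ot1 runs antisense to Kcnq1, and each is made from the paternal copy and keeps nearby coding genes silent on that chromosome. In the Dlk1-Dio3 domain the noncoding RNAs Meg3, Rian and Mirg come from the maternal copy and carry many small RNAs, while the coding genes Dlk1, Rtl1 and Dio3 come from the paternal copy. Among the coding genes, Igf2 promotes fetal growth, and Igf2r, which takes IGF2 to the lysosome, and Cdkn1c, which inhibits cyclin-dependent kinases, restrain it.

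The 3 noncoding RNAs whose levels differed between the genotypes are shown by their promoter windows. Each window holds 250 bases before and 50 after the start of a RefSeq transcript on GRCm38.p6, written 5′ to 3′ on the strand of transcription, with CpG dinucleotides in capitals because methylation falls on them. Airn is taken from chr17:12741061-12741360 on the plus strand, Kcnq1ot1 from chr7:143296498-143296797 on the minus strand and Meg3 from chr12:109540746-109541045 on the plus strand.
Airn: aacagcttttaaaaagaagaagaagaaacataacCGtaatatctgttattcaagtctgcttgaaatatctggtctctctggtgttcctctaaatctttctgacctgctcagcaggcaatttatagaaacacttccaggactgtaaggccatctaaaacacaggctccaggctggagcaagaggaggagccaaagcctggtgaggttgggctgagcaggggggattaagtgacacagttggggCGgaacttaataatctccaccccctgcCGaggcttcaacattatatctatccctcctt
Kcnq1ot1: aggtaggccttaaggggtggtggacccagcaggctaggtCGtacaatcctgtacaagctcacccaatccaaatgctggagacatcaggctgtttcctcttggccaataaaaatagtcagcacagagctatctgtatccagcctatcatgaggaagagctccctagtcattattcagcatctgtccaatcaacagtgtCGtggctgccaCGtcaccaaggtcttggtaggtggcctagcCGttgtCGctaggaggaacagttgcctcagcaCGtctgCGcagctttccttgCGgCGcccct
Meg3: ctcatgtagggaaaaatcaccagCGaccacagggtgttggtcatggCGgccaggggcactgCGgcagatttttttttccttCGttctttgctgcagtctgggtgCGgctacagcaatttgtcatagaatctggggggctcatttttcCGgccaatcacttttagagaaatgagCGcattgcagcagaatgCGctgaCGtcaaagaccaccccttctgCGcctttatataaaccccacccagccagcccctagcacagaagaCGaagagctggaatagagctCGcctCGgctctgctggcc
The Airn window holds 3 CpG dinucleotides, the Kcnq1ot1 window 9 and the Meg3 window 13, beside a median of 7 over the 32851 windows of the RefSeq promoter table. The table had windows for 26 of the 34 genes, 41 windows in all. TGCCGC, the hexamer that the imprint-protecting zinc finger protein ZFP57 binds when methylated, was searched on both strands and lay in the Meg3 window but not in those of Airn and Kcnq1ot1. Among the windows of imprinted genes 26.8% held it, against 11.6% of all windows, and some genes have several overlapping windows. The windows of imprinted genes were also richer in CpG, with a median of 13, and the hexamer itself holds a CpG. AACAAT, a core that SOX proteins can bind, was in none of the 3 windows shown, in 17.1% of the windows of imprinted genes and in 10.7% of all windows. TGACGTCA, the cyclic AMP response element, lay in the Meg3 window, clear of the TGCCGC match, in 9.76% of the windows of imprinted genes and in 1.79% of all windows. These are matches of letters and do not show that a factor binds there.

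The Dlk1-Dio3 domain also holds microRNAs made from the strand opposite to Rtl1, so that each is a perfect complement of the Rtl1 transcript. For the 11 mature microRNAs that RefSeq (GRCm38.p6) places inside the span of Rtl1, all 11 had their full reverse complement in the annotated Rtl1 transcript. They come from 6 genes, and 1 from each gene is shown on a line of its own, with the seed (bases 2 to 8) in capitals. All lie on chromosome 12, on the plus strand, and the 11 have 11 different seeds.
miR-431-5p: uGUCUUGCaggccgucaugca
miR-433-3p: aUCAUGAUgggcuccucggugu
miR-127-3p: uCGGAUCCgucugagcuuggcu
miR-434-3p: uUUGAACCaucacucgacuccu
miR-432: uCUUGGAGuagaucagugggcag
miR-136-5p: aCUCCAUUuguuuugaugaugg

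The WT libraries held 12880081 (replicate 1) and 8113463 (replicate 2) gene reads, and the Sox17eKO libraries 14306550 (replicate 1) and 21883956 (replicate 2). Sox17 itself was at 6.05 and 6.83 CPM (counts scaled to library size, with TMM factors) in WT and at 2.76 and 2.82 CPM in Sox17eKO. The share of uniquely placed reads that fell outside annotated features differed between the genotypes, at 20.4% and 22.2% in WT and 29.5% and 34.1% in Sox17eKO. Summed markers of cardiomyocytes (8 of 8 genes in the table) were at 19730 to 20810 CPM in WT and 33108 to 33724 in Sox17eKO, but only Ttn and Ryr2 of the 8 were called as higher, and the median log2 fold change of the list was 0.12 (range -0.23 to 1.37). Erythroid markers (6 of 6) summed to 2395 to 3223 CPM in WT and 1586 to 2136 in Sox17eKO, and pan-endothelial markers (10 of 10) to 999 to 1031 and 927 to 994 CPM. Smooth muscle markers (6 of 6) summed to 1934 to 1978 CPM in WT and 1741 to 1791 in Sox17eKO, but 1 was called as higher and 1 as lower. The median log2 fold change of that list was -0.14 (range -0.35 to 0.31). Mesenchyme markers (10 of 10) overlapped, at 4149 to 4622 CPM in WT and 4432 to 4446 in Sox17eKO. Liver and yolk sac markers (7 of 7) ran from 7.17 to 185 CPM with no order by genotype. Placenta and trophoblast markers (6 of 6) summed to 15.7 to 22.4 CPM in WT and 15.2 to 15.6 in Sox17eKO. Of these, Tpbpa and Gcm1 had 0 reads in every library. The part of these differences in the results for imprinted genes was not tested, and in tissue made of many cell types fewer cells of a type and less RNA per cell cannot be told apart.

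The outflow tract expressed the imprinted genes over a wide range. Together they took 2.62% and 2.54% of gene reads in WT and 2.44% and 2.55% in Sox17eKO. H19 alone took 1.34% and 1.35% in WT and 1.11% and 1.16% in Sox17eKO and ranked 6th among all genes by mean CPM, or 23rd per kilobase of exon. Per kilobase of exon the mean level over the 4 libraries was 5052 CPM for H19, 379 for Igf2, 341 for Mest, 314 for Igf2r, 275 for Cdkn1c and 263 for Grb10. The ranges of libraries overlap between neighbours in that order from Igf2 to Grb10, whereas H19 was above each of them in every library. Same-strand exons of other genes cover 62.83% of the exons of Igf2, and reads there may not have been counted for it. Of the noncoding RNAs, Rian (18.0 CPM per kilobase) and Airn (17.4) came next, in that order in WT (17.1 and 12.7) and in the reverse order in Sox17eKO (18.9 and 22.1), and Kcnq1ot1 was at 4.04, spread over an annotated exon of 93.09 kb. Phlda2, a placental growth inhibitor, Slc22a18, a transporter-like gene, Rtl1, a retrotransposon-derived gene, and Dio3, which inactivates thyroid hormone, lay below the filter on low counts (edgeR's filterByExpr) and were not tested, so 30 genes were.

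**Figure D1:**
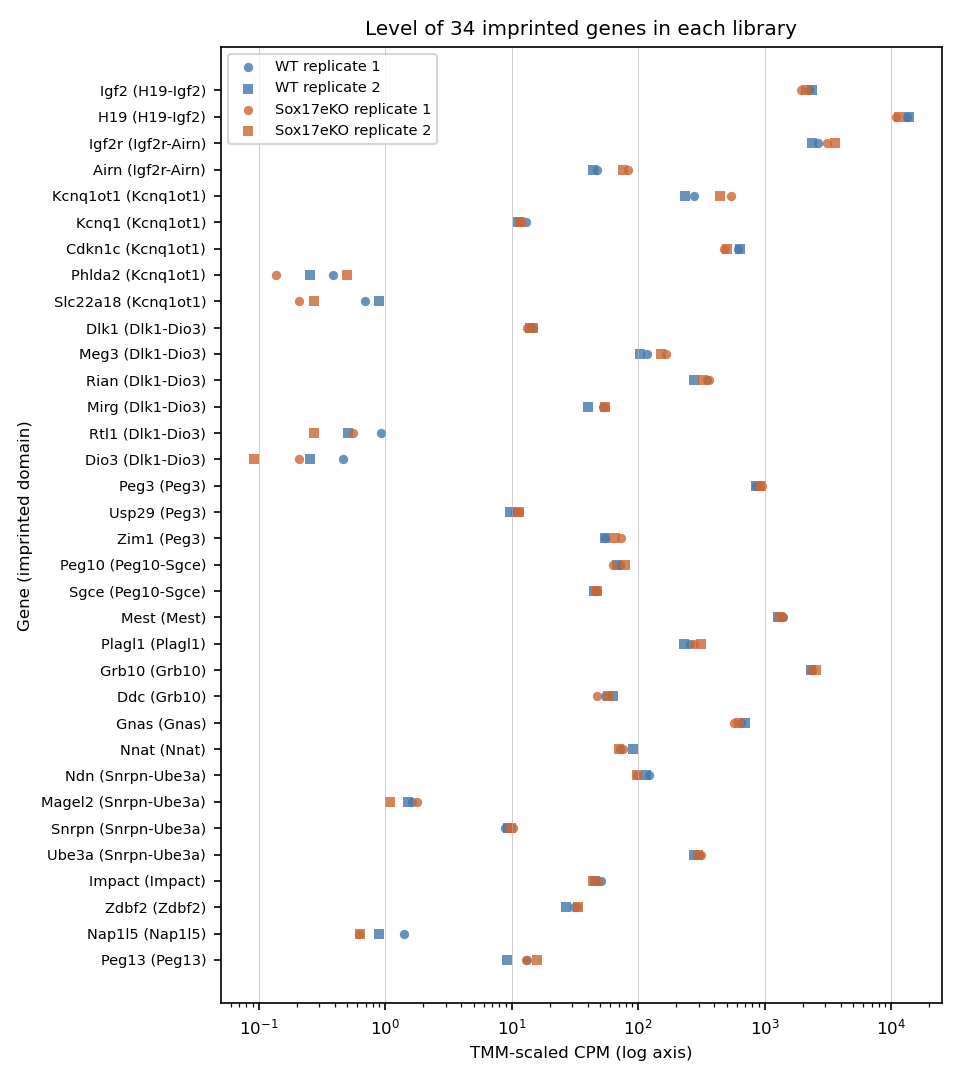
Level of each of the 34 imprinted genes in TMM-scaled CPM (log axis), with 1 point per library, WT in blue and Sox17eKO in orange, replicate 1 as circles and replicate 2 as squares. H19 stands highest, Igf2, Igf2r and Grb10 follow with 1946 to 3608 CPM, and Phlda2, Slc22a18, Rtl1 and Dio3 lie below 1 CPM.

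Of the 30 tested imprinted genes, 5 rose and 2 fell in Sox17eKO (edgeR quasi-likelihood test, Benjamini-Hochberg adjusted p under 0.05 over all 16570 tested genes). Over all tested genes 5.35% were called, 4.13% as higher and 1.22% as lower. Airn, Kcnq1ot1, Meg3, Igf2r and Zim1 rose, and Cdkn1c and Ndn fell. The median log2 fold change of the 30 was 0.04, against -0.01 over all tested genes. Of the 7 noncoding members 3 rose, with a median of 0.35, while 6.84% of the 790 tested long noncoding genes rose, with a median of 0.19. Of the 23 tested coding members 2 rose and 2 fell, with a median of 0.01, while 4.61% of tested protein-coding genes were called. By the parent they are known to be expressed from, 3 of 8 maternally expressed genes rose (Igf2r, Meg3 and Zim1) and 1 fell (Cdkn1c), and 2 of 19 paternally expressed genes rose (Airn and Kcnq1ot1) and 1 fell (Ndn). In 17 of the 30 the 2 genotypes did not overlap, a share near that of all tested genes (52.8%). The pools of a genotype differed by a median of 0.13 in WT and 0.12 in Sox17eKO on the log2 scale for these 30 genes.

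**Figure D2:**
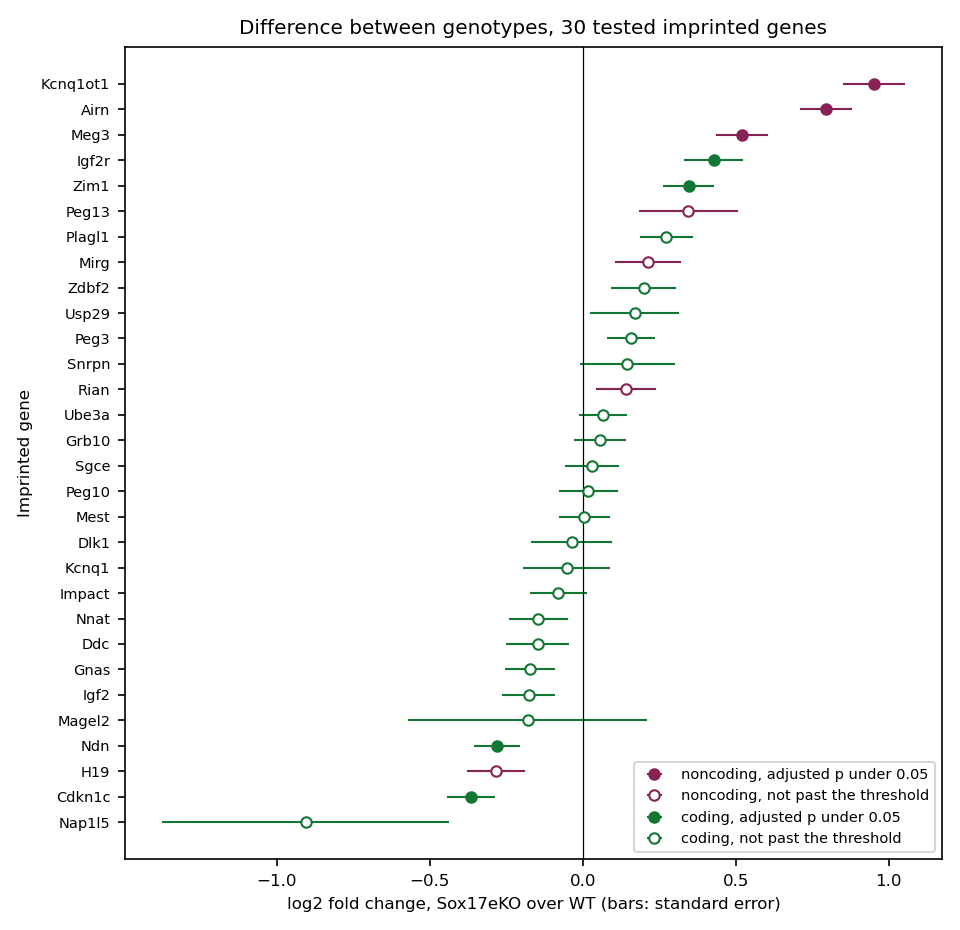
Fitted log2 fold change of Sox17eKO over WT with its standard error for the 30 tested imprinted genes, noncoding in purple and coding in green, filled where the adjusted p was under 0.05. Kcnq1ot1, Airn and Meg3 stand highest, and the differences of most coding genes lie within 0.3 of 0.

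Airn and Igf2r, which lie on opposite strands of the same stretch of chromosome 17, both rose in Sox17eKO. Airn (ENSMUSG00000078247), on the plus strand from 12741311 to 12860136 (mm10), was at 47.0 and 44.0 CPM in WT and 82.5 and 76.1 CPM in Sox17eKO. Both Sox17eKO libraries were clear of both WT libraries, and the pools of a genotype lay close together. The fold change was 1.74, or 0.80 in log2 (standard error 0.08, edgeR adjusted p = 4.1e-05), from 348 to 1673 reads a library. Only 3.597 kb of its span of 118.8 kb is annotated as exon, and the counts cover exons alone. The call was kept in each of 4 fits that left out 1 library.

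Igf2r, on the minus strand from 12682406 to 12769664, was at 2638 and 2352 CPM in WT and 3106 and 3608 CPM in Sox17eKO. It was also higher in both Sox17eKO libraries, with a wider gap between pools than Airn. The fitted difference in log2 was 0.43 (standard error 0.10, edgeR adjusted p = 0.0142). Leaving out WT replicate 2 gave an edgeR adjusted p of 0.143, and leaving out Sox17eKO replicate 2 gave 0.204, while the fit without the robust option gave 0.0514. The first exon of Igf2r lies within the span of Airn, but annotated exons of the pair do not overlap. Airn had 0.0178 and 0.0187 reads per Igf2r read in WT and 0.0266 and 0.0211 in Sox17eKO. The ratio was thus higher in both Sox17eKO libraries, by 1.296-fold on average, a log2 difference of 0.37 that was 0.21 without Sox17eKO replicate 1 and 0.54 without Sox17eKO replicate 2. An exact permutation test over 4 libraries cannot give a two-sided p below 0.333, and that is what it gave.

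In the Kcnq1ot1 domain of chromosome 7 the antisense RNA rose, Cdkn1c fell and Kcnq1 was not called. Kcnq1ot1, on the minus strand from 143203458 to 143296549, was at 277 and 236 CPM in WT and at 546 and 447 CPM in Sox17eKO. The lower Sox17eKO library was well above the higher WT library. The fold change was 1.93, or 0.95 in log2 (standard error 0.10, edgeR adjusted p = 9.1e-05), and the call was kept in each of the 4 fits that left out 1 library.

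Kcnq1, which encodes a potassium channel subunit and whose gene Kcnq1ot1 crosses in antisense, was at 12.95 and 11.1 CPM in WT and 11.9 and 11.6 CPM in Sox17eKO. The 2 genotypes overlapped, at -0.05 in log2 (standard error 0.14, edgeR adjusted p = 0.878). Cdkn1c, the cyclin-dependent kinase inhibitor p57, fell from 619 and 643 CPM in WT to 475 and 504 CPM in Sox17eKO. Both Sox17eKO libraries were below both WT libraries, and each pair of pools lay close. The fitted difference in log2 was -0.37 (standard error 0.08, edgeR adjusted p = 0.0104). Leaving out WT replicate 2 gave an edgeR adjusted p of 0.0981, and leaving out Sox17eKO replicate 1 gave 0.146. Opposite-strand exons cover 30.6% of the exons of Cdkn1c in the annotation used.

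The remaining coding genes of that domain were near the limit of detection. Slc22a18 had 9 and 7 reads in WT and 3 and 6 in Sox17eKO, which is 0.769 CPM (95% counting interval 0.44 to 1.25) in the pooled WT libraries and 0.247 (0.113 to 0.468) in Sox17eKO. It was lower in both Sox17eKO libraries at equal depth, although the intervals overlap at their ends. Phlda2 had 5 and 2 reads in WT and 2 and 11 in Sox17eKO, with pooled intervals that overlap over most of their length.

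Set against its neighbours within a library, Kcnq1ot1 had 21.3 and 21.1 reads per Kcnq1 read in WT and 45.6 and 38.6 in Sox17eKO, a ratio 1.98-fold higher. Against Cdkn1c it had 0.447 and 0.367 reads in WT and 1.15 and 0.887 in Sox17eKO, 2.49-fold higher. Both ratios were higher in each Sox17eKO library (exact permutation p = 0.333, the smallest possible). Over the 14 noncoding to coding pairs compared, Sox17eKO was above WT without overlap in 12, below without overlap in H19 to Igf2, and overlapping in Rian to Dlk1. No such share was computed over other pairs of genes, and 52.8% of single tested genes did not overlap between the genotypes. The pairs share members, so they are not independent of each other, and those with Phlda2, Slc22a18, Rtl1 and Dio3 rest on 2 to 12 reads of the coding gene a library.

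**Figure D3:**
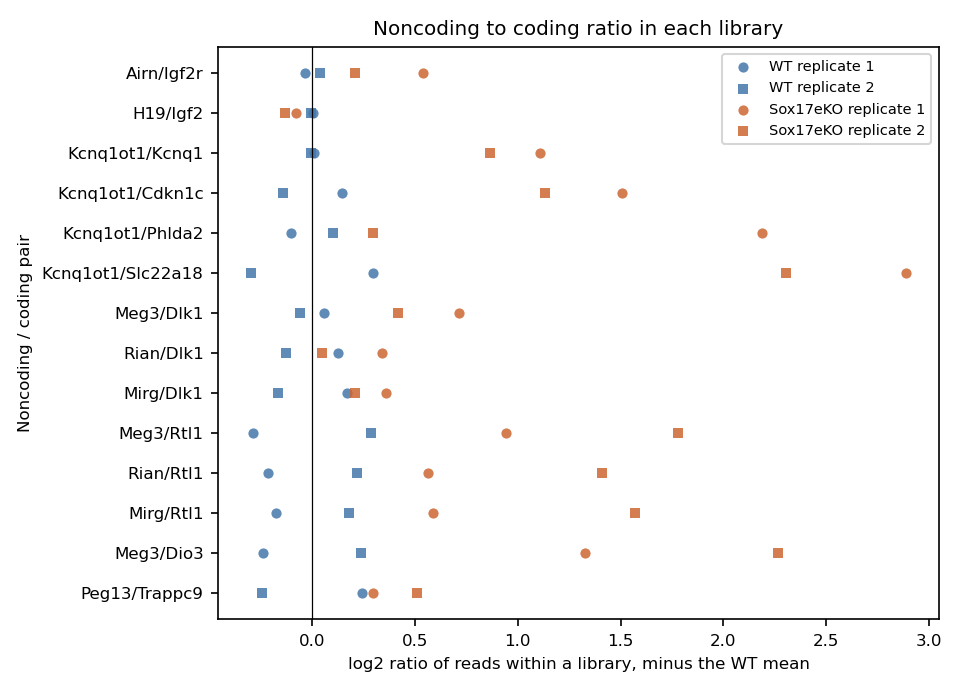
Log2 ratio of noncoding to coding reads within each library for 14 pairs of genes from 1 domain, minus the mean of the 2 WT libraries. WT is blue and Sox17eKO orange, and the pairs with Kcnq1ot1 show the widest gaps among pairs with well-covered coding genes.

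In the Dlk1-Dio3 domain of chromosome 12, Meg3 rose and its companions Rian and Mirg and the coding gene Dlk1 were not called. Meg3, a maternally expressed noncoding RNA on the plus strand from 109541001 to 109571726, was at 118 and 103 CPM in WT and at 167 and 151 CPM in Sox17eKO. The genotypes did not overlap. The fitted difference in log2 was 0.52 (standard error 0.08, edgeR adjusted p = 0.00179). It was 0.43 when WT replicate 2 was left out, where the edgeR adjusted p was 0.0577.

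Rian, which hosts box C/D snoRNAs, was at 348 and 276 CPM in WT and 362 and 328 CPM in Sox17eKO, with WT replicate 1 inside the Sox17eKO range. The fitted difference in log2 was 0.14 (standard error 0.10, edgeR adjusted p = 0.439). Mirg, which hosts microRNAs, was at 53.1 and 39.9 CPM in WT and at 54.5 and 54.4 CPM in Sox17eKO. WT replicate 1 was thus close to both Sox17eKO libraries and WT replicate 2 stood lower (log2 fold change 0.21, standard error 0.11, edgeR adjusted p = 0.277). Whether Meg3 differs from Rian and Mirg in its response was not tested.

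Dlk1, which encodes a membrane protein of the Notch ligand family, was at 14.7 and 13.9 CPM in WT and at 13.2 and 14.7 CPM in Sox17eKO, with full overlap (log2 fold change -0.04, standard error 0.13, edgeR adjusted p = 0.915). Meg3 had 7.99 and 7.37 reads per Dlk1 read in WT and 12.6 and 10.2 in Sox17eKO, 1.48-fold higher (exact permutation p = 0.333, the smallest possible). Rtl1, the target of the antisense microRNAs, had 12 and 4 reads in WT and 8 and 6 in Sox17eKO, or 0.769 CPM (95% counting interval 0.44 to 1.25) and 0.384 (0.21 to 0.644) in the pooled libraries. Dio3 had 6 and 2 reads in WT and 3 and 2 in Sox17eKO, or 0.465 and 0.253 against 0.207 and 0.091 CPM. It was lower in both Sox17eKO libraries with pooled 95% counting intervals that overlap (0.166 to 0.758 in WT and 0.0445 to 0.32 in Sox17eKO), while Rtl1 overlapped between the genotypes, and neither gene was tested.

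Reads in the small RNA genes of the domain were counted as well. The 6 microRNA genes inside the span of Rtl1, with 1 mature sequence of each given above, held 34 and 21 reads in WT and 69 and 88 in Sox17eKO, or 2.64 and 2.66 against 4.76 and 4.003 CPM. Both Sox17eKO libraries were higher, by 1.65-fold. The 59 microRNA genes between Meg3 and Mirg, 53 of them with reads and the 6 included, summed to 14.6 and 10.2 CPM in WT and 22.0 and 18.1 CPM in Sox17eKO, 1.63-fold higher without overlap. By contrast 23 snoRNA genes of the same stretch, 14 with reads, summed to 50.7 and 63.5 CPM in WT and 59.8 and 54.1 CPM in Sox17eKO, where the genotypes overlapped and the mean log ratio was close to 0. These were not small RNA libraries, and reads of mature microRNAs cannot be told apart here from reads of their host transcripts. Most of the snoRNA reads came from Gm23736 and DQ267102. No test was run on these sums, and 52.8% of single tested genes did not overlap between the genotypes.

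Of 3 further long noncoding units tested between Meg3 and Mirg, 2 were called, B830012L14Rik and Gm37899, and Gm26945 was not (log2 fold change 0.54, standard error 0.18, edgeR adjusted p = 0.086); all were named after their values were seen. B830012L14Rik, a long intergenic RNA, had 44 and 22 reads in WT and 118 and 154 in Sox17eKO (log2 fold change 1.25, standard error 0.22, edgeR adjusted p = 0.00315). Gm37899, an unspliced unit yet to be experimentally established, had 282 and 120 reads in WT and 466 and 646 in Sox17eKO (log2 fold change 0.70, standard error 0.14, edgeR adjusted p = 0.00789), and 22.6% of tested units of its class were called, each as higher. In CPM both were higher in each Sox17eKO library. Their edgeR adjusted p was 0.0569 and 0.103 without WT replicate 2.

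**Figure D4:**
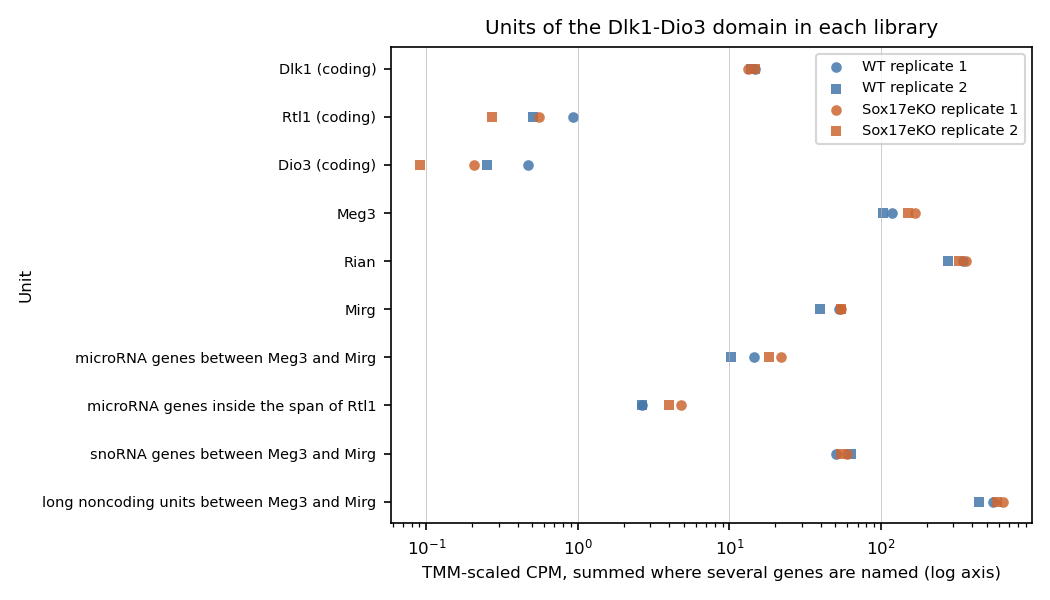
Level of the Dlk1-Dio3 units in each library in TMM-scaled CPM (log axis), WT in blue and Sox17eKO in orange. Meg3 and the microRNA genes lie higher in both Sox17eKO libraries, while Dlk1 and the snoRNA genes overlap.

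The H19-Igf2 domain, also on chromosome 7, showed the opposite arrangement, with lower values for both the noncoding and the coding gene. H19, an abundant maternally expressed RNA that hosts miR-675, was at 13422.5 and 13874 CPM in WT and at 10918 and 11497 CPM in Sox17eKO. Both Sox17eKO libraries were below both WT libraries, yet the difference missed the threshold (log2 fold change -0.28, standard error 0.10, edgeR adjusted p = 0.0871). It was past the threshold without WT replicate 1 (edgeR adjusted p = 0.0366), whereas without another library the edgeR adjusted p ran from 0.199 to 0.523. With all libraries it was also past the threshold with DESeq2 (adjusted p = 0.00591), limma-voom (adjusted p = 0.0461), and edgeR without a filter (adjusted p = 0.0292) or with a replicate block (adjusted p = 0.0241). Igf2, the fetal growth factor, was at 2255 and 2345 CPM in WT and at 1946 and 2127 CPM in Sox17eKO. These values do not overlap either, at -0.18 in log2 (standard error 0.09, edgeR adjusted p = 0.254).

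H19 had 5.95 and 5.92 reads per Igf2 read in WT and 5.61 and 5.41 in Sox17eKO. The ratio was thus lower in both Sox17eKO libraries at 0.928 times that in WT (exact permutation p = 0.333, the smallest possible). Same-strand exons of other genes cover 62.83% of the exons of Igf2 and 3.41% of those of H19. Reads there may have been set aside, and the part of this overlap in the size of the ratio was not tested. Since both genes share an enhancer set and a methylated control region, the pair is often read together. Igf2os, an RNA antisense to Igf2 that was named after its values were seen, was at 46.8 and 60.2 CPM in WT and at 42.1 and 39.4 CPM in Sox17eKO (log2 fold change -0.38, standard error 0.11, edgeR adjusted p = 0.0447). Without WT replicate 2, where it was highest, the edgeR adjusted p was 0.436. The mature sequence of miR-675-5p, with its seed in capitals, lies on the minus strand within the exon of H19.
miR-675-5p: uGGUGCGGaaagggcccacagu
Its gene Mir675 had 0 reads in all libraries although H19 had at least 109671 in each. HTSeq by default sets aside reads that match overlapping genes of the same strand. On the opposite strand, the short genes Gm27483 and Gm27786 within H19 drew 0.769% and 0.623% as many reads per base as H19.

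In the Peg3 domain of chromosome 7, Zim1 rose, and Peg3 and Usp29 were not called. Zim1, a maternally expressed zinc finger gene from 6671269 to 6696450 on the minus strand, was at 54.4 CPM in both WT libraries and at 72.6 and 66.0 CPM in Sox17eKO. The WT pools were nearly equal and both Sox17eKO pools lay above them. The fitted difference in log2 was 0.35 (standard error 0.08, edgeR adjusted p = 0.0204). The call was lost in 3 of 4 fits that left out 1 library, with edgeR adjusted p of 0.0635 without WT replicate 1, 0.148 without WT replicate 2 and 0.217 without Sox17eKO replicate 1, and DESeq2 gave an adjusted p of 0.0524. Peg3, a paternally expressed zinc finger gene, was at 848 and 846 CPM in WT and at 960 and 929 CPM in Sox17eKO, without overlap (log2 fold change 0.16, standard error 0.08, edgeR adjusted p = 0.26). Usp29, which shares a promoter region with Peg3 in the opposite direction, was at 10.7 and 9.61 CPM in WT and at 11.5 CPM in both Sox17eKO libraries (log2 fold change 0.17, standard error 0.15, edgeR adjusted p = 0.551).

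In the Snrpn-Ube3a domain, known in humans from the Prader-Willi and Angelman syndromes, Ndn fell. Ndn, which encodes necdin of the MAGE family, was at 121 and 116 CPM in WT and at 97.6 and 98.1 CPM in Sox17eKO. The pools of each genotype were close together and the genotypes were apart. The fitted difference in log2 was -0.28 (standard error 0.08, edgeR adjusted p = 0.0358). The call was lost in each of the 4 fits that left out 1 library (edgeR adjusted p from 0.124 to 0.176) and with library sizes in place of TMM (edgeR adjusted p = 0.0739). It was also lost with DESeq2 (adjusted p = 0.0617) and with edgeR without its robust option (adjusted p = 0.0505).

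Other genes of the Snrpn-Ube3a domain were not called. Magel2, also of the MAGE family, had only 12 to 26 reads a library, and its 2 Sox17eKO libraries, at 1.79 and 1.09 CPM, lay on either side of the WT libraries (1.63 and 1.52 CPM). Snrpn, a component of the splicing machinery, was at 8.84 and 9.36 CPM in WT and at 10.3 and 9.82 CPM in Sox17eKO (log2 fold change 0.15, standard error 0.16, edgeR adjusted p = 0.642). Its exons are shared with Snurf, which had 0 reads. Ube3a, a ubiquitin ligase gene that is imprinted in neurons, was at 303 and 278 CPM in WT and at 313 and 296 CPM in Sox17eKO, overlapping. Snhg14, the long host RNA that includes the antisense transcript of Ube3a, was at 7.68 and 8.60 CPM in WT and at 7.86 and 6.69 CPM in Sox17eKO (log2 fold change -0.16, edgeR adjusted p = 0.655).

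Plagl1, Grb10 and Ddc were not called. Plagl1, a zinc finger regulator of growth, was at 258 and 230 CPM in WT and at 276 and 314 CPM in Sox17eKO. It did not overlap between the genotypes and had the adjusted p closest to the threshold among coding genes not called (log2 fold change 0.27, standard error 0.09, edgeR adjusted p = 0.0685, unadjusted p = 0.00501 from the same edgeR fit). Grb10, an adaptor that dampens insulin and IGF signalling, was at 2378 and 2306 CPM in WT and at 2341 and 2531 CPM in Sox17eKO, overlapping (log2 fold change 0.06, standard error 0.09). Ddc, an aromatic amino acid decarboxylase gene next to Grb10 with an imprinted form in the embryonic heart, was at 54.5 and 63.1 CPM in WT and at 47.3 and 58.0 CPM in Sox17eKO, also overlapping (log2 fold change -0.15, standard error 0.10).

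Mest, a paternally expressed member of the hydrolase fold family, was at 1399 and 1283 CPM in WT and at 1362 and 1330 CPM in Sox17eKO. At 0.01 in log2 (standard error 0.08), it was the nearest to 0 of the 30 tested genes. Gnas, which encodes a stimulatory G protein subunit, was at 648 and 698 CPM in WT and at 567 and 627 CPM in Sox17eKO (log2 fold change -0.17, standard error 0.08, edgeR adjusted p = 0.242), without overlap. Peg10, a retrotransposon-derived gene, and Sgce, a sarcoglycan gene, share a promoter region and both overlapped, with log2 fold changes of 0.02 and 0.03 and standard errors of 0.10 and 0.09.

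The other tested members were likewise not called. Peg13, a noncoding RNA from an intron of Trappc9, was at 13.1 and 9.24 CPM in WT and at 12.96 and 15.9 CPM in Sox17eKO, where WT replicate 1 and Sox17eKO replicate 1 were alike (log2 fold change 0.35, standard error 0.16, edgeR adjusted p = 0.232). Trappc9 was at 34.9 and 34.5 CPM in WT and at 33.2 and 35.1 CPM in Sox17eKO, overlapping. Nap1l5, a nucleosome assembly protein family member, had the widest coding difference at -0.91 on the log2 scale (standard error 0.47, edgeR adjusted p = 0.28), from 7 to 18 reads a library. Zdbf2, a zinc finger gene, was at 30.8 and 26.7 CPM in WT and at 32.6 and 33.7 CPM in Sox17eKO (log2 fold change 0.20, standard error 0.11). Nnat, a membrane proteolipid gene, was at 71.9 and 90.6 CPM in WT and at 75.7 and 70.5 CPM in Sox17eKO, and Impact, a translation regulator, at 50.7 and 45.3 and at 47.7 and 43.6 CPM, and in both genes the genotypes overlapped.

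Further lists set these genes in context. Of 34 tested imprinted genes outside the members, 3 rose and 1 fell, beside 4.13% and 1.22% of all tested genes. The antisense RNA Nespas, which runs from the Gnas domain opposite to the Nesp transcript and is paternally expressed, was at 11.4 and 7.97 CPM in WT and at 17.9 and 16.2 CPM in Sox17eKO. Both Sox17eKO libraries were higher (log2 fold change 0.78, standard error 0.16, edgeR adjusted p = 0.00701), as for Airn and Kcnq1ot1, and without WT replicate 2 the edgeR adjusted p was 0.113. Over all tested genes of the annotation's antisense class, 5 of 220 rose and 1 fell, with a median log2 fold change of 0.06. Nespas, Airn and Kcnq1ot1 are among the 5, and Igf2os is the 1 that fell. Of tested long intergenic RNAs 18 of 248 rose and 2 fell. Those that rose include Malat1 and the X-linked Xist, named after their values were seen. They rose by 0.81 and 0.75 on the log2 scale (edgeR adjusted p = 0.00019 and 8.5e-05). The sex of the pooled embryos is not among the labels used, and its part in the rise of Xist was not tested. Ppp1r9a, a neurabin gene, rose by 0.59 on the log2 scale (edgeR adjusted p = 0.000244), and Ago2, an Argonaute gene, by 0.33 (edgeR adjusted p = 0.0469). Dcn, a matrix proteoglycan gene that is also among the mesenchyme markers, fell by 0.32 (edgeR adjusted p = 0.0339). Without WT replicate 2 the edgeR adjusted p was 0.00949 for Ppp1r9a, 0.344 for Ago2 and 0.128 for Dcn. With a smooth trend on exonic length and gene span removed from each library, Ago2 was at 0.12 and no longer called (edgeR adjusted p = 0.483), while Nespas, Ppp1r9a and Dcn were still called (edgeR adjusted p = 0.0063, 0.0197 and 0.0181).

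Of 21 tested factors that set, protect or erase imprints, 5 rose and 16 did not pass the test, with a median of 0.07, beside 4.13% of all tested genes that rose. Trim28, a corepressor that ZFP57 recruits, had the lowest log2 fold change of the list at -0.29 (edgeR adjusted p = 0.0538). Tet2, which oxidises methylcytosine, rose by 0.55 on the log2 scale (edgeR adjusted p = 0.00112). Zfp445, which encodes a zinc finger protein that protects imprints, rose by 0.46 (edgeR adjusted p = 0.00406). Tet1 rose by 0.37 and Arid4b, a chromatin factor gene, by 0.34 (edgeR adjusted p = 0.0239 and 0.0286). Tet3 was the fifth. Zfp57 itself was at 37.6 and 34.9 CPM in WT and at 43.4 and 38.4 CPM in Sox17eKO and was not called (log2 fold change 0.17, edgeR adjusted p = 0.357). Without WT replicate 2, Tet2 kept its call (edgeR adjusted p = 0.0396), and Zfp445, Tet1 and Arid4b did not (0.0918, 0.279 and 0.228). With the length trend removed Tet1, Arid4b and Tet3 were at 0.14, 0.0814 and 0.0913 and no longer called (edgeR adjusted p = 0.403, 0.664 and 0.636), while Tet2 and Zfp445 were still called (edgeR adjusted p = 0.0291 and 0.0113). Trim28, at -0.29, was then called as lower (edgeR adjusted p = 0.0449), but not within protein-coding genes alone (edgeR adjusted p = 0.0645).

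Of 9 tested genes of proteins that receive, bind or translate IGF2, 4 were called, 2 as higher and 2 as lower, beside 5.35% of all tested genes. Igf1r, the receptor through which IGF2 signals, was at 69.8 and 68.1 CPM in WT and at 87.6 and 88.5 CPM in Sox17eKO (log2 fold change 0.35, standard error 0.08, edgeR adjusted p = 0.0131). Insr, the insulin receptor gene, rose by 0.34 (edgeR adjusted p = 0.0204). Igfbp4 fell by 0.29 and Igfbp2 fell by 0.32 (edgeR adjusted p = 0.048 and 0.0489). Without WT replicate 2 the edgeR adjusted p of these 4 genes ran from 0.117 for Insr to 0.257 for Igfbp2, and each call was kept in at most 1 of the 4 fits that left out a library. With the length trend removed, Igf1r was at 0.0545, Insr at 0.11 and Igfbp2 at -0.19, none of them called (edgeR adjusted p = 0.775, 0.495 and 0.283), and Igfbp4 at -0.30 was (edgeR adjusted p = 0.0405).

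Over all tested genes, the share that rose was highest among those with the longest exonic sequence. Of tested genes with 2 to 4 kb of exon, the bin of Airn, 2.1% rose. Of those with 8 to 16 kb, the bin of Igf2r and Zim1, 10.6% rose, and of the 305 with 16 kb or more, the bin of Kcnq1ot1 and Meg3, 45.9% rose. Rian, Usp29 and Ube3a also have 16 kb of exon or more and did not pass the test. With the trend on exonic length and gene span removed, the log2 fold change of Airn was 0.77 (edgeR adjusted p = 2.3e-05), while that of Kcnq1ot1 was 0.36 (edgeR adjusted p = 0.00992), that of Meg3 0.30 (edgeR adjusted p = 0.0346) and that of Igf2r 0.29 (edgeR adjusted p = 0.0427). Only 3 tested genes are as long as Kcnq1ot1, itself included, so the trend there is set by few genes.

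The same removal moved the calls of other members. Cdkn1c was then at -0.54 and Ndn at -0.45 (edgeR adjusted p = 0.000278 and 0.00147). H19 was at -0.51 (edgeR adjusted p = 0.000801) and Gnas at -0.33 (edgeR adjusted p = 0.0185), both then past the threshold, and Zim1 at 0.27 no longer was (edgeR adjusted p = 0.0771). Within protein-coding genes alone, the trend-free log2 fold change was -0.25 for Cdkn1c, -0.23 for Ndn and 0.29 for Igf2r (edgeR adjusted p = 0.0513, 0.136 and 0.0369).

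In 7 of the 30 tested genes (Airn, Kcnq1ot1, Meg3, Mirg, Peg3, Usp29 and Zim1) the 4 libraries stood in the same order as their share of reads outside features, which 10.5% of all tested genes did. In 4 (H19, Igf2, Cdkn1c and Gnas) the order was reversed, against 9.78% of all tested genes. The other tested members, Igf2r and Ndn among them, followed neither order. Reads outside features took a larger share in both Sox17eKO libraries than in WT, so such an order cannot be told apart from genotype. Genes of the sense-intronic class, whose reads come from within introns, rose in 20 of 104 cases with a median log2 fold change of 0.93, and unspliced units yet to be established (class TEC) in 126 of 557 with a median of 0.83. The part of length, and of reads outside exons, in the rise of the long noncoding RNAs was not tested.

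**Figure D5:**
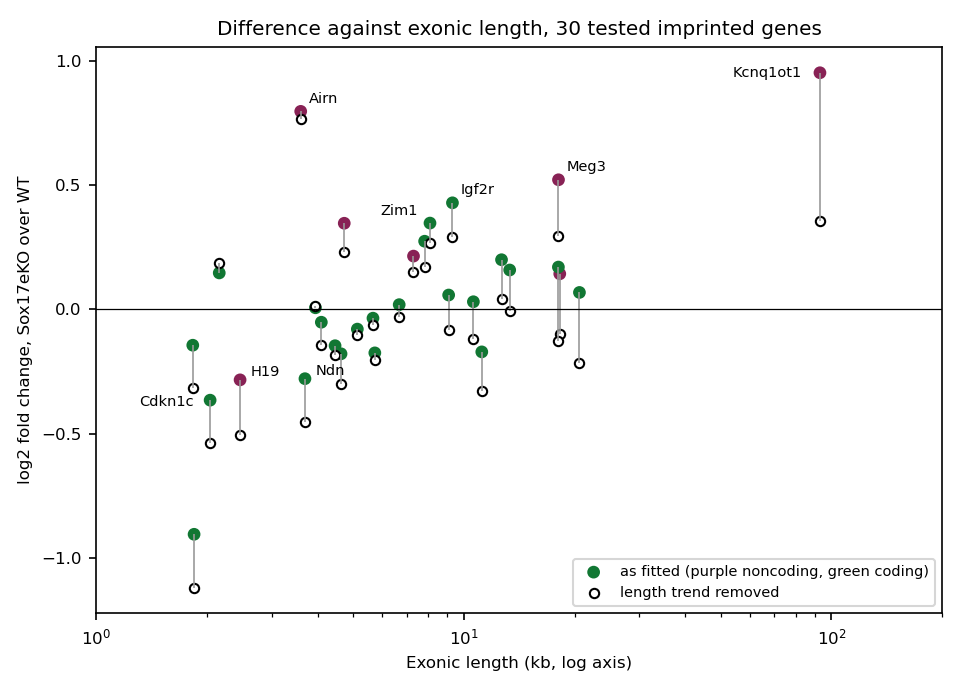
Log2 fold change of Sox17eKO over WT against exonic length (kb, log axis) for the 30 tested imprinted genes, as fitted (filled, purple noncoding and green coding) and with a trend on length removed (open), joined by a line. Airn moves from 0.80 to 0.77 and Kcnq1ot1 from 0.95 to 0.36.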

How the data were processed

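RNA was counted per gene in 4 libraries, 2 WT and 2 Sox17eKO. The deposited values are the authors' raw counts of reads for each Ensembl gene. Per the labels' protocols, TRIzol was used to isolate RNA, which went into strand-specific Illumina libraries from pools of 10 hearts (20 mice per genotype). The submitters' processing notes name TopHat2 and HTSeq as tools and mm10 as the build. Tool versions, the strand setting and the release of the annotation are not given in the sources used here. Genes whose exons are wholly covered by exons of the opposite strand had reads in 46.0% of 396 cases, and those wholly covered on the same strand in 11.9% of 612, so opposite strands were largely counted apart.

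Groups and replicate numbers came from the sample titles. Of 45706 genes, 45143 had a symbol in GENCODE M21 (on GRCm38, that is mm10), which gave classes, coordinates and exonic lengths. The 5 HTSeq summary rows were left out. The 2 pools of a genotype were kept as separate samples, since their counts differed beyond sampling noise (chi-square divided by its degrees of freedom was 5.16 for WT and 6.72 for Sox17eKO). P-values of edgeR set the genotype difference against a spread between pools. That spread was estimated largely from other genes (a median of 16.5 prior against 2 residual degrees of freedom). Counting intervals (95%, exact Poisson) cover counting error only.

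Genotypes were compared with the quasi-likelihood test of edgeR (edgeR 4.0.16, R 4.3.3, TMM, robust, prior count 0.125) on the 16570 genes that passed filterByExpr, with Benjamini-Hochberg adjustment over all of them, and the scripts were tested on simulated data. Before moderation 2 residual degrees of freedom were left, and the biological coefficient of variation was 0.0791. Standard errors are absolute log2 fold changes over the square root of F. Noncoding to coding ratios used reads plus 0.5 and an exact permutation test, two-sided. Alternatives were DESeq2 1.42.0, limma-voom (limma 3.58.1), other scalings and filters, the fit without the robust option, a replicate block and each library left out. Fits with a trend on length removed (mgcv 1.9.3) over all classes were added after seeing the data.

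The genes, lists and alternatives were chosen with earlier results of these data known. Named genes are all members, Trappc9, and up to 4 called genes of each list by smallest p, with others said to be chosen after their values were seen or given as domain partners.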

Additional observations from a re-analysis of the deposited data

How the results depend on the processing

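With 2 pools per genotype the number of calls moved more than the values did. Of all tested genes 886 were called, 684 higher and 202 lower. That number was 409 with DESeq2, 1364 without a filter, 1684 with a replicate block, 149 over protein-coding genes with the length trend removed, 590 over all classes with it removed, and 103 to 970 when 1 library was left out (103 without WT replicate 2 and 289 without Sox17eKO replicate 1). The split was 769 higher and 111 lower by library size, 78 and 71 over protein-coding genes without the trend, and 235 and 355 over all classes without it. Of the imprinted genes 7 were called, 2 over protein-coding genes without the trend (Igf2r and Gnas), 2 to 7 when 1 library was left out (2 without WT replicate 2, 4 without Sox17eKO replicate 1), and 5 to 9 under the other settings, with 9 under the block. Whether replicate numbers pair the libraries is not stated, and their deviations had r = -0.02.

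None of the 7 called imprinted genes changed sign under the settings run. In these 7 the genotypes did not overlap, so leaving out a library could hardly turn the sign. Uncalled genes near 0 changed sign under some settings, and the cause was not tested. Without the length trend over protein-coding genes and over all classes the log2 fold change was -0.0058 and -0.0062 for Peg3, -0.12 and -0.13 for Usp29, -0.0165 and -0.0315 for Peg10, -0.12 and -0.12 for Sgce, -0.0818 and -0.0826 for Grb10, and -0.21 and -0.22 for Ube3a, and over all classes -0.10 for Rian. With 1 library left out it ran from -0.15 to 0.0771 for Kcnq1, -0.12 to 0.0309 for Dlk1, -0.0158 to 0.32 for Rian, -0.15 to 0.16 for Peg10, -0.0156 to 0.0832 for Sgce, -0.0578 to 0.0714 for Mest, -0.00019 to 0.11 for Grb10, -0.31 to 0.0198 for Nnat, -0.53 to 0.18 for Magel2 and -0.16 to 0.0118 for Impact. The 14 noncoding to coding ratios kept their direction with 5 counts added and with each library left out. In pairs without overlap between the genotypes, leaving out a library cannot turn the direction. For ratios the block gives the main value by construction, so it checks nothing. The length trend was not removed from ratios. Depth limits Phlda2, Slc22a18, Rtl1, Dio3, Magel2 and Nap1l5, with under 30 reads in each library.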
